A study of Homo sapiens with 18 samples.

Results

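A set of 10 long non-coding RNAs known from cancer was followed beside NEAT1 in 3 human multiple myeloma cell lines. They were MIAT, PVT1, GAS5, SNHG1, SNHG12, DANCR, CRNDE, ZFAS1, NORAD and MEG3, chosen by symbol and matched to the Ensembl identifiers of the count tables, 10 genes of the 62703 listed and of the 18858 listed as long non-coding RNA. The study knocked down NEAT1 with an LNA-gapmeR, a chemically locked antisense oligonucleotide whose pairing with an RNA lets RNase H cleave that RNA. Cells of AMO1, H929 (NCI-H929) and LP1, established lines grown from malignant plasma cells, took up naked gapmeR from the medium (gymnosis), and their RNA was taken at 48 h. In each line 3 libraries carried the label gN1E, the gapmeR against NEAT1, and 3 the label SCR, the scrambled gapmeR, which makes 18 stranded total RNA libraries. No untreated cells entered the comparison, so both labels share the uptake of a gapmeR, and each line stands for 1 tumour. Nothing in the labels says whether the 3 libraries of a group came from separate cultures, so the p-values measure the spread between these libraries.

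The levels of MIAT, PVT1, GAS5, ZFAS1, SNHG1, SNHG12 and DANCR differed between the lines, CRNDE and NORAD stayed close, and none passed the test for a change with the gapmeR label. In each line 9 of them were measured well enough to be tested and MEG3 was not. NEAT1 itself differed between the labels by more than 2 units of log2 in every line. The largest contrast among the 10 was that of MIAT between lines, 106 CPM in AMO1 against 4.95 CPM in the libraries labelled LP1.

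Long non-coding RNAs are transcribed and often spliced like messenger RNAs but do not code for protein. GAS5, SNHG1, SNHG12 and ZFAS1 are host genes of small nucleolar RNAs (snoRNAs). Their introns carry the snoRNAs, which guide chemical modification of ribosomal RNA, while the spliced exons are classically removed by nonsense-mediated decay. NORAD is an abundant cytoplasmic RNA known for a part in genome stability, PVT1 lies beside the MYC oncogene, and MEG3 is an imprinted gene often silenced in tumours.

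Before the values are read, 3 facts about the libraries matter. NEAT1 went against its label, since it was higher in the libraries labelled gN1E in every line. The names written inside the count tables exchange SCR with gN1E in all 18 libraries, and also H929 with LP1 in the libraries of those lines. Reads of the immunoglobulin segment IGHV3-23 were between 55114 and 102058 in the AMO1 libraries and between 51156 and 114535 in those labelled H929, and 0 in all 6 labelled LP1. Each library is therefore called by its label, and every direction below is that of the libraries labelled gN1E against those labelled SCR. All 9 plasma cell markers on the list (SDC1, CD38, TNFRSF17, IRF4, PRDM1, XBP1, JCHAIN, SLAMF7 and MZB1) reached 1 CPM in every library, with summed levels from 11200 to 21500 CPM. The summed levels of the B cell, monocyte and macrophage, and stromal lists, of 4 genes each, stayed under 10 CPM in every library, and that of the T cell list was 9.24 to 28.0 CPM, from CD3E and TRAC. Total counts ran from 28061606 to 69937229 a library, with a median of 53807613. In AMO1 depth moved with the label, from 28061606 to 49784737 in the libraries labelled gN1E and from 53227560 to 66142827 in those labelled SCR.

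To set the scale for the other RNAs, NEAT1 was measured first. In AMO1 it stood at 75.7, 78.7 and 90.1 CPM in the libraries labelled SCR and at 474, 540 and 510 CPM in those labelled gN1E (CPM, counts scaled to a common library size by TMM over the 18 libraries). In the libraries labelled H929 it stood at 80.7, 73.4 and 79.5 against 561, 465 and 548 CPM, and in those labelled LP1 at 135, 172 and 188 against 656, 666 and 827 CPM. The groups did not overlap in any line. The log2 fold changes were 2.66 (standard error 0.074, adjusted p = 5.1e-13), 2.74 (0.068, 3.11e-14) and 2.14 (0.19, 0.0269) in that order, by the quasi-likelihood test of edgeR, with p-values adjusted over all genes tested (Benjamini-Hochberg). Put the other way, the libraries labelled SCR held 0.159, 0.15 and 0.227 of the NEAT1 of those labelled gN1E. In LP1 the call for NEAT1 was lost without SCR replicate B (edgeR adjusted p = 0.176) and without gN1E replicate A, B or D (0.111, 0.0886 and 0.0578), at log2 fold changes of 2.01 to 2.20.

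**Figure D1:**
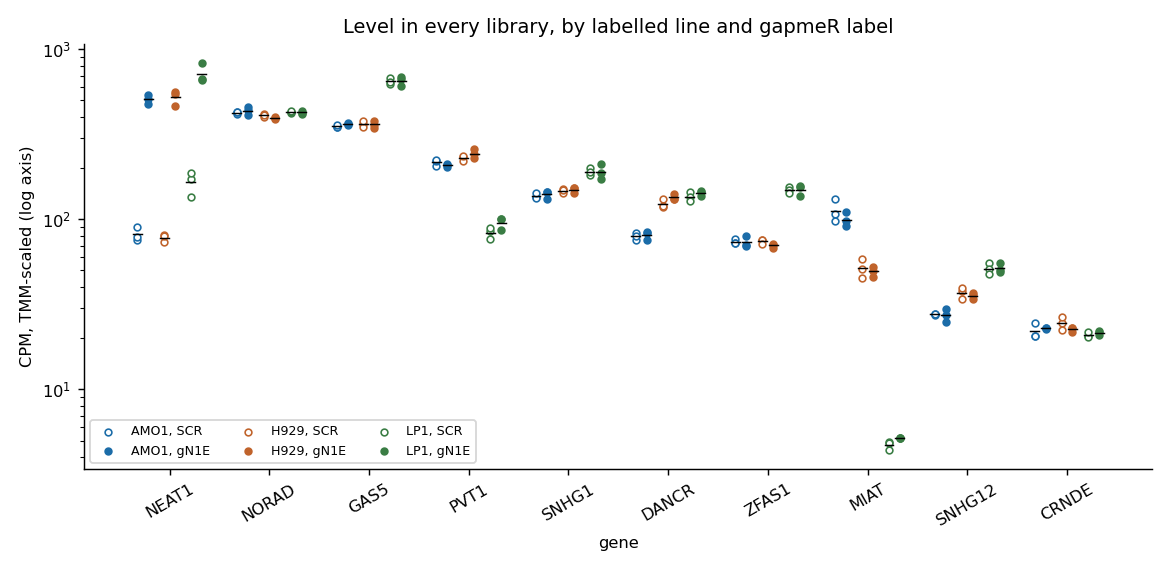
Level of NEAT1 and of the 9 detected long non-coding RNAs in each of the 18 libraries, as TMM-scaled CPM on a log axis, by labelled line (colour) and gapmeR label (open, SCR; filled, gN1E), with the mean of 3 libraries as a black bar. Open and filled points lie apart for NEAT1 in every line, while they lie close together or mixed for the other RNAs, of which MIAT lies furthest apart by line.

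How abundant the 10 RNAs were was compared per length, as FPKM (CPM per kilobase of annotated exon), since CPM favours long transcripts. The length takes all annotated exons of a gene together, 25431 bases for PVT1 and 3976 for SNHG1, so the order depends on the annotation. By this measure NORAD, GAS5 and SNHG1 led in every line. By CPM, PVT1 stood above SNHG1 in AMO1 (212 against 139) and H929 (237 against 148) and below it in LP1 (89.4 against 191). In AMO1, NORAD had 79.5 ± 3.12 FPKM (SD, n = 6 libraries of both labels), GAS5 72.6 ± 1.49 and SNHG1 34.8 ± 1.30, and these 3 did not overlap. ZFAS1 (8.85 FPKM), PVT1 (8.34), DANCR (7.87), MIAT (6.65) and SNHG12 (6.43) followed, each overlapping the next, and CRNDE came last of those detected with 1.52 ± 0.110 FPKM. In the libraries labelled H929 the ranges of NORAD (74.3 ± 1.70 FPKM) and GAS5 (73.4 ± 3.02) overlapped, and DANCR, at 12.6 ± 0.861 FPKM, stood above PVT1, ZFAS1 and SNHG12. In those labelled LP1 the order turned. GAS5 stood first with 132 ± 6.30 FPKM, above NORAD with 78.9 ± 1.25, and MIAT lay below CRNDE, with 0.312 ± 0.0184 against 1.44 ± 0.0439 FPKM. NEAT1 had 22.3, 23.0 and 31.5 FPKM in the libraries labelled gN1E, which came next after SNHG1 in each line, and 3.58, 3.42 and 7.25 FPKM in those labelled SCR, below ZFAS1, DANCR and SNHG12.

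MIAT (ENSG00000225783.9, chr22:26646411-26676475, + strand, hg38) is a nuclear RNA first described at a locus linked to myocardial infarction. In AMO1 its lowest, median and highest levels over 6 libraries were 91.1, 103 and 131 CPM. In the libraries labelled H929 they were 45, 50.3 and 58.8 CPM, and in those labelled LP1 4.42, 5.04 and 5.18 CPM. The 3 ranges did not overlap, and each LP1-labelled library held at least 213 MIAT reads. The log2 difference was 4.42 (95% interval 4.23 to 4.61) between AMO1 and LP1, 3.34 (3.15 to 3.52) between H929 and LP1, and 1.09 (0.93 to 1.24) between AMO1 and H929, with edgeR adjusted p = 1.3e-18, 9.68e-17 and 7.09e-10.

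PVT1 (ENSG00000249859.14, chr8:127794526-128187101, + strand) is transcribed downstream of MYC. It reached 204 to 224 CPM in AMO1, 221 to 259 CPM in the libraries labelled H929 and 76.1 to 99.8 CPM in those labelled LP1. AMO1 and H929 overlapped, and LP1 lay below both. PVT1 was 2.39-fold lower in LP1 than in AMO1 (log2 difference 1.26, 95% interval 1.17 to 1.35, edgeR adjusted p = 1.29e-23) and 2.63-fold lower than in H929 (1.39, 1.31 to 1.48, adjusted p = 8.67e-25). MYC differed in the same order, at 855 CPM in AMO1, 988 CPM in H929 and 575 CPM in LP1, and its log2 differences to LP1 were 0.58 and 0.76 (edgeR adjusted p = 3.1e-14 and 3.03e-17).

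GAS5, ZFAS1, SNHG1 and SNHG12, named above as snoRNA hosts, went the other way and were highest in the libraries labelled LP1. GAS5 (ENSG00000234741.10, chr1:173858559-173868882, - strand), a transcript that accumulates in growth arrest, had 350 to 369 CPM in AMO1, 344 to 379 in H929 and 607 to 689 in LP1. ZFAS1 (ENSG00000177410.13, chr20:49278178-49299600, + strand), antisense to the start of ZNFX1, had 69.9 to 79.8, 68.1 to 75.8 and 138 to 156 CPM. Both were alike in AMO1 and H929, where their ranges overlapped, and LP1 stood apart. Against LP1 the log2 differences of GAS5 were -0.86 from both AMO1 and H929, and those of ZFAS1 were -1.01 and -1.06 (edgeR adjusted p between 8.77e-21 and 2.36e-22 for the 4).

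SNHG1 (ENSG00000255717.9, chr11:62851978-62855953, - strand) and SNHG12 (ENSG00000197989.15, chr1:28578538-28583132, - strand) were also highest in LP1. SNHG1 ran from 132 to 144 CPM in AMO1, 143 to 152 in H929 and 173 to 212 in LP1, with log2 differences of -0.45 (95% interval -0.54 to -0.37) and -0.38 (-0.46 to -0.30) against LP1 (edgeR adjusted p = 3.28e-12 and 2.27e-10). By library size only these were -0.27 and -0.19 (edgeR adjusted p = 7.07e-08 and 3.75e-05), a scaling that also took SNHG12 in H929 against LP1 to -0.33. SNHG12 differed between all 3 lines, from 24.8 to 29.7 CPM in AMO1, through 33.8 to 39.3 in H929, to 47.4 to 55.6 in LP1, with no overlap. Its log2 differences against LP1 were -0.90 and -0.52, and that between AMO1 and H929 was -0.38 (edgeR adjusted p = 7.62e-18, 1.04e-11 and 7.02e-08).

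Many snoRNA host genes begin, like ribosomal protein genes, with a C followed by a run of pyrimidines (C or T), known as a 5′ terminal oligopyrimidine start. Because these 4 hosts were all highest in the libraries labelled LP1, the start of each is shown as RefSeq gives it on GRCh38.p14. Each is 30 bases 5′ to 3′ on the gene's strand, with the first transcribed base at position 11. Any pyrimidine run that begins with C at that base is in capitals.
SNHG12 (chr1:28581854-28581883): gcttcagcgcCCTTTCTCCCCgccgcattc
ZFAS1 (chr20:49278632-49278661): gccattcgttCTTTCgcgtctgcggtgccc
SNHG1 (chr11:62855866-62855895): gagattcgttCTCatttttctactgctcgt
GAS5 (chr1:173869026-173869055): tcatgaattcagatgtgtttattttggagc
SNHG12 and ZFAS1 had the C followed by at least 4 pyrimidines, SNHG1 had a run of 3 bases, and the listed GAS5 start had none. None of these starts is the gene's 5′ end in GENCODE. That of GAS5 lies upstream of it, at 173868882. Those of SNHG12, ZFAS1 and SNHG1 lie inside the gene, whose 5′ ends are at 28583132, 49278178 and 62855953. Read at the start base on the gene's strand only, this pattern was in 4.07% of the 35116 starts in the table and in 5 of the 20 other snoRNA host genes with an entry (25%). DANCR, CRNDE, NORAD, MIAT and MEG3 had no run at their listed starts, and no start is given for PVT1.

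Of the remaining RNAs, DANCR (ENSG00000226950.8, chr4:52712325-52723623, + strand), known for holding back differentiation of progenitor cells and holding 1 snoRNA gene in the annotation, separated AMO1 from the other lines. It had 75.4 to 84.1 CPM in AMO1, 118 to 141 in H929 and 128 to 146 in LP1. AMO1 was lower by 0.66 on the log2 scale than H929 (95% interval of the difference -0.74 to -0.58, edgeR adjusted p = 7.93e-16), while H929 and LP1 overlapped and differed by -0.13 (-0.21 to -0.05, adjusted p = 0.00303). CRNDE (ENSG00000245694.12, chr16:54845189-54929189, - strand), named for its expression in colorectal neoplasia, had 20.5 to 24.7, 21.7 to 26.5 and 20.4 to 21.9 CPM. NORAD (ENSG00000260032.2, chr20:36045618-36051018, - strand) had 412 to 458, 390 to 415 and 419 to 436 CPM. For these 2 RNAs no difference between lines exceeded 0.13 on the log2 scale with TMM and all 18 libraries, although NORAD was lower in H929 than in both AMO1 (0.12, edgeR adjusted p = 0.00224) and LP1 (-0.10, adjusted p = 0.00474), the second of which turned to 0.089 without composition factors (library size only). That scaling moved the median log2 difference of all genes against LP1 from 0.022 to 0.20 for AMO1 and from 0.053 to 0.24 for H929. It also brought calls between AMO1 and LP1 for CRNDE (0.27, edgeR adjusted p = 6.74e-05, beside 0.32 between H929 and LP1) and NORAD (0.20, adjusted p = 7.95e-07). Relative to these medians, it left NORAD near or below all genes in both, and the difference of DANCR between H929 and LP1, at 0.059, below them as well. The call for CRNDE between H929 and LP1 (0.13, edgeR adjusted p = 0.0225) was lost with RLE size factors (0.088, adjusted p = 0.126) and without H929 SCR replicate C or LP1 gN1E replicate B (adjusted p = 0.0885 and 0.0503), and it was strongest among the fits with a library left out without H929 SCR replicate B (0.16, adjusted p = 0.00685).

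MEG3 (ENSG00000214548.18, chr14:100779410-100861031, + strand) was at or near 0. It had 3 reads over the 18 libraries, 2 and 1 in single H929-labelled libraries, and 16 libraries held none. A count of 0 allows up to 0.0429 CPM in the deepest library and 0.107 CPM in the shallowest (3 counts of the total, counting error only), so MEG3 was not detected in AMO1 or LP1 at this depth and no fold change is given.

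**Figure D2:**
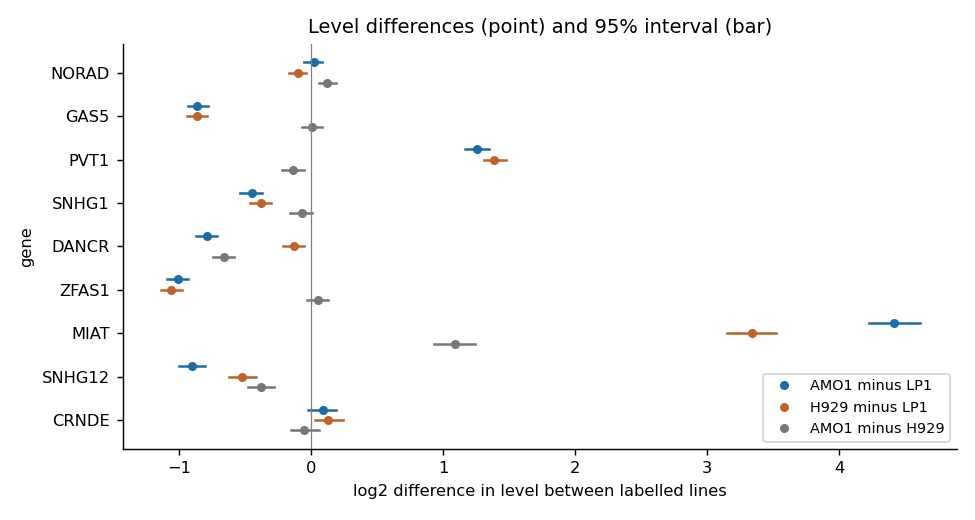
Difference in level between labelled lines for the 9 tested RNAs, as log2 difference averaged over both labels (point) with its 95% interval (bar), from the joint fit of 18 libraries. MIAT and PVT1 lie right of 0 against LP1, at 4.42 and 1.26 for AMO1, and GAS5, ZFAS1, SNHG12, SNHG1 and DANCR lie left of 0.

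Differences of this kind were common across the genome. Between AMO1 and LP1, 75.9% of the 26436 genes in the joint fit passed the threshold and 7 of the 9 tested RNAs did. For H929 against LP1 the figures were 74.6% and 9 of 9, and for AMO1 against H929 they were 44.4% and 5 of 9. Counting only differences of at least 2-fold, the background was 41.5%, 38.1% and 10.2%, and the RNAs numbered 3, 3 and 1. Of the 24 other snoRNA host genes listed, 23 were tested, and 15 were lower and 3 higher in AMO1 than in LP1, with a median log2 difference of -0.54 beside 0.022 over all genes. In H929 against LP1, 13 were lower and 2 higher (median -0.31 beside 0.053). In AMO1 against H929, 14 of these hosts were lower and 3 higher (median -0.27 beside 0.0). Of the 8 snoRNP core proteins, which bind the snoRNAs, 6 were lower and 1 higher in AMO1 than in LP1. They were 6 lower and 2 higher in H929 than in LP1, and 7 lower and 1 higher in AMO1 than in H929.

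Whether the gapmeR label moved any of these RNAs was then tested within each line. None of the 9 passed the threshold of 0.05 in any line (edgeR, adjusted over all genes tested), beside 2.06% of 22933 genes in AMO1, 5.47% of 23499 in H929 and 1.43% of 23165 in LP1. With limma-voom and with DESeq2 the count was also 0 of 9 in each line. At an unadjusted p under 0.05 it was 0 in AMO1, 1 (DANCR) in H929 and 1 (PVT1) in LP1, beside 12.2%, 17.7% and 13% of all genes tested. In AMO1, where libraries with the same letter deviated together, the fit with the replicate letter as a block called 1394 genes in place of 473, and still 0 of the 9. The fitted log2 fold changes lay between -0.16 and 0.07 in AMO1, -0.13 and 0.12 in H929, and 0.01 and 0.21 in LP1. Over the 27 values no 95% interval reached below -0.41 or above 0.37, whereas the lowest interval for NEAT1 began at 1.62. The medians of the 9 were 0.042, -0.064 and 0.033, beside -0.016, -0.0096 and -0.0012 over all genes.

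**Figure D3:**
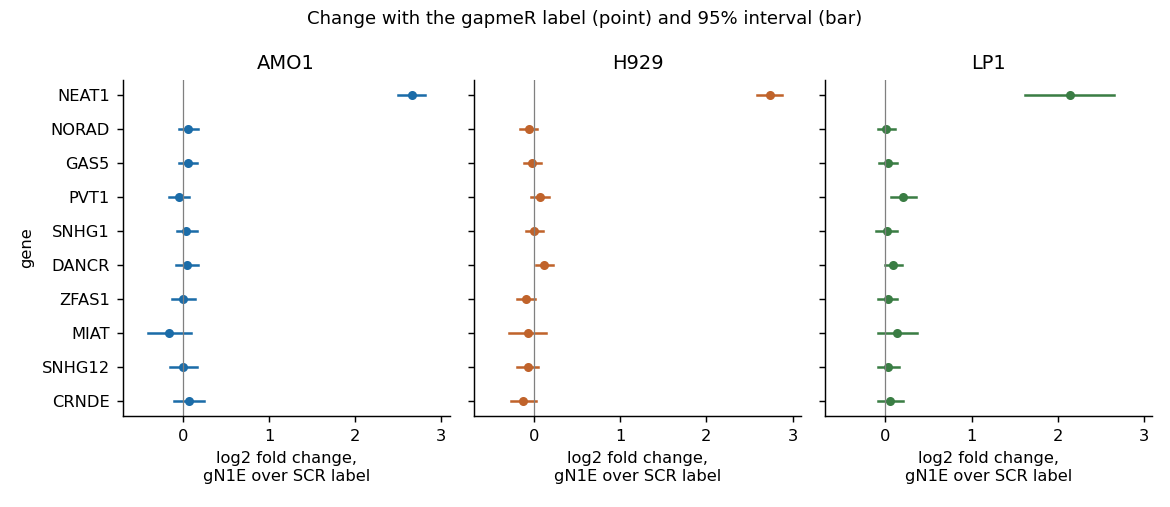
Log2 fold change of libraries labelled gN1E over those labelled SCR for NEAT1 and 9 long non-coding RNAs in each labelled line (point), with the 95% interval of the edgeR fit (bar). NEAT1 lies at 2.66, 2.74 and 2.14, and the other points lie between -0.16 and 0.21.

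PVT1 came nearest to a call. In the libraries labelled LP1 it stood at 85.6, 76.1 and 88.6 CPM with SCR and at 99.8, 86.8 and 99.8 CPM with gN1E. The groups overlapped, since the lowest gN1E library lay between SCR libraries. On the log2 scale PVT1 was higher by 0.21 (standard error 0.066, 95% interval 0.07 to 0.35, edgeR adjusted p = 0.137), a rise of 1.05 to 1.28-fold by its interval, in the direction of NEAT1. The adjusted p was 0.0122 with no filter on low counts, 0.0471 with the replicate letter as a block and 0.0375 without LP1 SCR replicate D, so the call depends on these choices. The range over all alternatives was 0.0122 to 0.491. In AMO1 and H929 the log2 fold changes of PVT1 were -0.04 and 0.06 (edgeR adjusted p = 0.81 and 0.57).

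DANCR in the libraries labelled H929 stood at 118, 131 and 119 CPM with SCR and at 132, 141 and 131 CPM with gN1E, which is 0.12 on the log2 scale (standard error 0.050, 95% interval 0.02 to 0.22, edgeR adjusted p = 0.19). It was 0.05 in AMO1 and 0.09 in LP1, and none of the alternatives called it. MIAT had the widest intervals. In AMO1 it stood at 131, 108 and 98.0 CPM with SCR and at 91.1, 110 and 97.2 CPM with gN1E, a log2 fold change of -0.16 (95% interval -0.41 to 0.09, edgeR adjusted p = 0.636), which allows a level from 0.75 to 1.07 times that of SCR. In LP1 all 3 libraries labelled gN1E (5.18, 5.17 and 5.14 CPM) lay above those labelled SCR (4.42, 4.93 and 4.86 CPM), with a log2 fold change of 0.14 (-0.09 to 0.37, edgeR adjusted p = 0.634).

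The snoRNA hosts had narrower intervals than MIAT. GAS5 in AMO1 stood at 351, 350 and 357 CPM with SCR and 360, 369 and 362 CPM with gN1E, which did not overlap, at a log2 fold change of 0.06 (95% interval -0.05 to 0.16, edgeR adjusted p = 0.691). Its intervals in H929 (-0.12 to 0.08) and LP1 (-0.07 to 0.14) were as narrow. SNHG1 had fold changes of 0.04, -0.0018 and 0.02 on the log2 scale, SNHG12 0.0013, -0.08 and 0.03, and ZFAS1 0.0058, -0.10 and 0.03. CRNDE gave 0.07, -0.13 and 0.06, with its lowest edgeR adjusted p of 0.357 in H929. NORAD in H929 stood at 401, 415 and 409 CPM with SCR and 398, 390 and 395 CPM with gN1E, which did not overlap, at -0.06 (-0.16 to 0.03, edgeR adjusted p = 0.515). In each line 1 of the 9 RNAs had groups that did not overlap (GAS5, NORAD and MIAT in turn), beside 16.9%, 21.8% and 17.7% of all genes tested.

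The lines were compared in 1 fit to ask whether the change with the label differed between them. None of the 9 RNAs passed for any pair of lines in edgeR, beside 0.0% of 26436 genes for AMO1 against H929, 0.741% for AMO1 against LP1 and 0.874% for H929 against LP1. The lowest adjusted p of the 9 was that of PVT1 between AMO1 and LP1 (difference -0.24, 95% interval -0.41 to -0.07, edgeR adjusted p = 0.238). For MIAT the same difference was -0.29 (-0.66 to 0.09, edgeR adjusted p = 0.605). NEAT1 differed by 0.64 between H929 and LP1 (0.24 to 1.03, edgeR adjusted p = 0.197).

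How far other long non-coding RNAs changed was counted in the same fits. Without NEAT1, 0.779% of 5519 such genes were called in AMO1, 2.36% of 5687 in H929 and 0.601% of 5491 in LP1, beside 3.15%, 8.08% and 1.97% of protein-coding genes. The 2 types of gene were not matched for read counts, so these shares do not show which type changed more. Of 50 further cancer-related long non-coding RNAs on a list, 49 matched and 36, 34 and 38 were tested. None was called in AMO1 or LP1 and 2 of 34 were called in H929, both lower, beside 2.06%, 1.43% and 5.47% of all genes. At an unadjusted p under 0.05 there were 3, 7 and 8 in AMO1, LP1 and H929, beside 12.2%, 13% and 17.7% of all genes. MALAT1, an abundant nuclear RNA whose gene lies next to NEAT1, came near a call in LP1. It had 4870 ± 163 CPM with gN1E and 5760 ± 487 with SCR, with no overlap (-0.23 on the log2 scale, edgeR adjusted p = 0.0553), and passed with no filter (adjusted p = 0.000262), DESeq2 (0.0157), limma-voom (0.0499) and without LP1 SCR replicate A (0.0488). In H929, where it was at -0.29 (edgeR adjusted p = 0.227), it passed with limma-voom (0.0327) and without SCR replicate B or gN1E replicate A (0.0136 and 0.0031). In AMO1 MALAT1 had 4630 ± 122 CPM with gN1E and 4740 ± 392 with SCR (-0.02, edgeR adjusted p = 0.932), and no alternative called it. Under at least 1 alternative DLEU2, HCP5, JPX and MIR4435-2HG were also called in LP1, all higher with gN1E, and HCP5 and MIR155HG in H929, both lower. Of the 2 called in H929, LINC00467 was 4.57 ± 0.0849 CPM with gN1E and 6.07 ± 0.757 with SCR (SD, n = 3 each). This is -0.42 on the log2 scale (edgeR adjusted p = 0.0295). HULC, known from liver cancer, had 14 to 49 reads a library in H929, at 0.331 ± 0.0595 against 0.775 ± 0.107 CPM (-1.23, edgeR adjusted p = 0.0139). The call for LINC00467 was lost in 5 of the 6 fits that left out a library (all but SCR replicate A), and that for HULC without SCR replicate A or gN1E replicate B, with edgeR adjusted p up to 0.122 and 0.0922 over all alternatives.

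Of the other snoRNA host genes none was called in AMO1 or H929, beside 2.06% and 5.47% of all genes. At an unadjusted p under 0.05 there were 2 and 0 of 23 in these lines, beside 12.2% and 17.7%. In LP1, 2 of 23 were called (8 unadjusted), beside 1.43% of all genes there (13% unadjusted). SNHG3 rose there from 289 ± 18.4 to 332 ± 13.8 CPM (log2 fold change 0.22, edgeR adjusted p = 0.0287), and SNHG25 fell from 12.3 ± 1.08 to 9.10 ± 0.587 CPM (-0.42, adjusted p = 0.0235). Both calls were lost without LP1 SCR replicate B, gN1E replicate A or gN1E replicate D, with edgeR adjusted p up to 0.141 for SNHG3 and up to 0.412 for SNHG25 over all alternatives. SNHG25 in H929 was at -0.41 (edgeR adjusted p = 0.533), and without SCR replicate B it was called there (-0.62, adjusted p = 9.17e-05), as was SNHG22 (-0.52, adjusted p = 0.0493). SNHG4, SNHG14, SNHG17 and SNHG26 were each called in LP1 under at least 1 alternative, all higher with gN1E. With the replicate letter as a block, SNHG7 (-0.28, edgeR adjusted p = 0.000986) and SNHG14 (0.15, adjusted p = 0.0248) were called in AMO1. SNHG7 was also called there with no filter (0.00288), by library size only (0.014) and without SCR replicate C or gN1E replicate A (0.0166 and 0.0125, edgeR adjusted p).

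Genes that work with the 10 RNAs were read in the same way. Of 10 nonsense-mediated decay factors, SMG6, an endonuclease of that pathway, rose in H929 from 64.1 ± 1.06 to 75.5 ± 2.48 CPM (log2 fold change 0.22, edgeR adjusted p = 0.00581), and none was called in AMO1 or LP1. The counts at an unadjusted p under 0.05 were 1, 2 and 0 of 10 in AMO1, H929 and LP1. Of 8 snoRNP core proteins SNU13, which binds the box C/D and U4 RNAs, rose in H929 (0.19, edgeR adjusted p = 0.0282). That call was lost without H929 SCR replicate A or C or gN1E replicate A or B (edgeR adjusted p up to 0.219), and none of the 8 was called in AMO1 or LP1. The unadjusted counts were 0, 3 and 0 of 8. The background in AMO1, H929 and LP1 was 2.06%, 5.47% and 1.43% of all genes called. At an unadjusted p under 0.05 it was 12.2%, 17.7% and 13%. NOP56 and NHP2, also of the 8, were called higher in H929 without gN1E replicate C (edgeR adjusted p = 0.0101 and 0.0229). With no filter NOP56 was called there as well (0.16, edgeR adjusted p = 0.0274).

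Among 11 genes that lie beside the 10 RNAs, 7 were tested in each line and MYC in H929 was the 1 called, beside 5.47% of all genes there. At an unadjusted p under 0.05 there were 1, 4 and 1 of the 7 in AMO1, H929 and LP1, beside 12.2%, 17.7% and 13% of all genes. In the libraries labelled H929 it rose from 878 ± 46.8 to 1100 ± 26.3 CPM (SD, n = 3 each), or by 0.31 on the log2 scale (standard error 0.051, edgeR adjusted p = 0.000124) with no overlap between the labels, while PVT1 next to it was at 0.06. In AMO1 and LP1 MYC was at 0.09 and 0.02 (edgeR adjusted p = 0.687 and 0.88). The difference of its change between H929 and LP1 was 0.32 (0.15 to 0.49, edgeR adjusted p = 0.0613), which missed the threshold. With the replicate letter as a block ZBTB37, beside GAS5, was called in AMO1 (-0.22, edgeR adjusted p = 0.0302). In H929 it was called without gN1E replicate C (-0.24, adjusted p = 0.0183) and by library size only (-0.22, adjusted p = 0.0351). In LP1 ZBTB37 went the other way, at 0.17 with no overlap (edgeR adjusted p = 0.122). SLC3A2, which encodes an amino acid transporter subunit, was called in H929 without gN1E replicate A (0.19, edgeR adjusted p = 0.0272). Of the 9 plasma cell markers SDC1 rose in H929 (0.22, edgeR adjusted p = 0.0196, up to 0.0932 over the alternatives) and CD38 fell (-0.21, adjusted p = 0.00406). None of the 9 was called in AMO1 or LP1. At an unadjusted p under 0.05 there were 2, 4 and 1 in AMO1, H929 and LP1. Under at least 1 alternative JCHAIN in AMO1, IRF4 in LP1 and TNFRSF17 in H929 were called, at 0.17, 0.15 and -0.15 in the main fit. So was TRAC of the T cell list in LP1, at -0.92. Of the monocyte and macrophage list, CSF1R stood at -0.84 in LP1 with no overlap (edgeR adjusted p = 0.155, down to 4.06e-10 over the alternatives). CD14 and LYZ, with few reads, stood there at 0.63 and -0.22 (edgeR adjusted p = 0.767 and 0.934), and FCGR3A had no reads.

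The small RNAs that the hosts carry were mostly invisible in these counts. The annotation places 7 snoRNA genes inside SNHG1, 5 in SNHG12, 3 in ZFAS1 and 1 in DANCR on the same strand, and those of GAS5 were not analysed here. All 7 in SNHG1 overlap an annotated exon of the host, whose exons span all of its 3976 bases, and all 7 were at 0 in every library. A read pair that touches exons of 2 genes is counted for neither with the settings used, so these zeros do not show that the snoRNAs were absent, and the counts of the hosts lack the same reads. SNORD12C in ZFAS1 and SNORD99 in SNHG12, which overlap no host exon, had 46 to 313 and 20 to 180 reads. Their mean levels were 1.52, 2.13 and 4.54 CPM for SNORD12C and 0.66, 1.16 and 2.07 CPM for SNORD99 in AMO1, H929 and LP1. Both had the order of SNHG12, while ZFAS1, the host of SNORD12C, had 73.6, 72.3 and 149 CPM. Neither snoRNA was called with the label (edgeR adjusted p between 0.276 and 0.888). Of the 5 microRNA genes in PVT1, 3 were at 0, and MIR1205 had 11 to 74 reads.

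The RNAs were also searched for letters shared with NEAT1. The sequence of the gapmeR was not given in the sources used here. Stretches of 11 bases of NEAT1 were therefore ranked by how high the genes that carry them, on the transcribed strand and introns included, stood in the AMO1 libraries labelled gN1E for their genomic span. The top stretch lay in 15 bases of NEAT1, bases 3078 to 3092 of the gene at chr11:65425851-65425865 on the + strand.
NEAT1: ttttgtggtcactgt
Below, the same 15 bases are shown with the longest run found in each named RNA in capitals.
MIAT: ttttgtGGTCACTGT
DANCR: TTTTGTGGTcactgt
CRNDE: TTTTGTGGTCactgt
SNHG12: tttTGTGGTCActgt
GAS5: TTTTGTGgtcactgt
The longest runs were 10 bases in PVT1 and CRNDE, both outside annotated exons, 9 in MIAT, DANCR and MEG3, 8 in SNHG12 and ZFAS1, and 7 in GAS5, SNHG1 and NORAD. None reached 11 bases of this stretch. Over the whole NEAT1 gene, introns of the RNAs included, the longest runs were longer, from 17 bases in SNHG1 to 46 in PVT1. SNHG1 has the shortest span of the 10, 3976 bases, and PVT1 the longest, 392576. No other genes were searched in this way, so these runs have no background and do not show a likeness particular to NEAT1.

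Across all genes with a mean of at least 1 CPM in the line, the change with the label moved with the run. In H929, which did not enter the choice of the stretch, the median log2 fold change was -0.017 over 3364 genes with a run of 7 or fewer bases, 0.026 over 2503 genes with 10 and 0.332 over 85 genes with 13 or more, and the shares called higher were 1.34%, 8.75% and 61.2%. In LP1 the medians were -0.013, 0.005 and 0.148 and the shares 0.3%, 0.89% and 15.9%. Genes called lower at these runs numbered 64, 59 and 1 in H929, beside 45, 219 and 52 called higher. In LP1 they numbered 54, 15 and 0, beside 9, 22 and 13 called higher. In AMO1, where the stretch was chosen, the medians ran from -0.039 to 0.313. Longer genes carry longer runs, with a median span in H929 of 2.3 kb at 7 or fewer bases, 83.6 kb at 10 and 142.7 kb at 13 or more, and the part of span was not tested. Among long non-coding RNA genes with a run of 11 or more, 7.89% of 279 were called higher in H929 and 1.48% of 271 in LP1, beside 0.795% and 0.296% of those with 9 or fewer. Called lower were 1 and 0 genes with 11 or more, and 54 and 13 with 9 or fewer. With a run of 10, 1, 8 and 2 were called higher and 2, 10 and 0 lower, of 483, 504 and 492 in AMO1, H929 and LP1. All of the 10 RNAs lay in the part of this scale where the median of all genes was between -0.039 and 0.034. At 10 bases, the run of PVT1 and CRNDE, the shares of all genes called higher were 3.68%, 8.75% and 0.89% in AMO1, H929 and LP1. At 7 or fewer they were 0.45%, 1.34% and 0.3%.

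**Figure D4:**
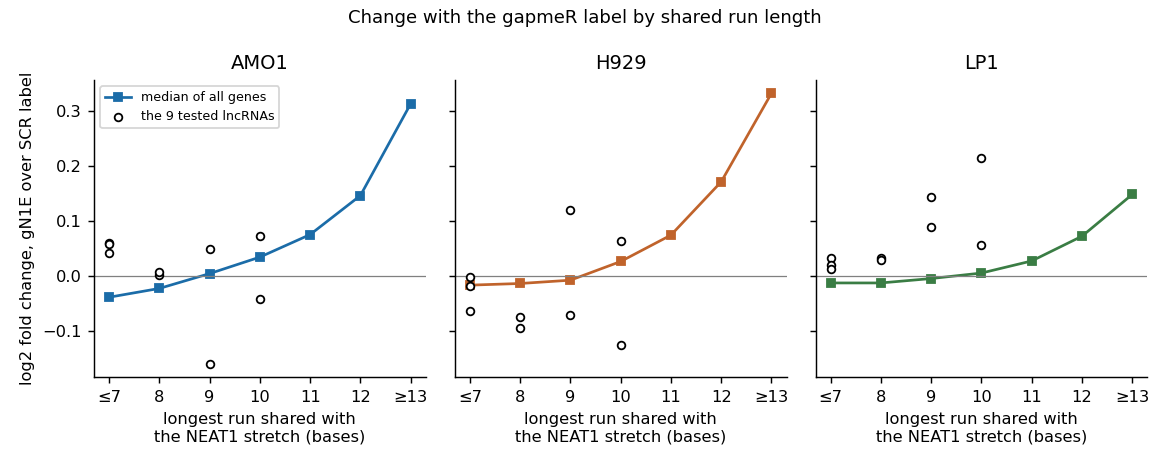
Log2 fold change with the gapmeR label against the longest run of bases shared with the 15-base NEAT1 stretch, in each labelled line. Squares are the median of all genes with a mean of at least 1 CPM and circles the 9 tested RNAs, which have runs of 7 to 10 bases, while the medians climb to 0.313, 0.332 and 0.148 at 13 or more.

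The genes whose levels ran most like each RNA were sought over the 18 libraries, by Pearson's r of log2 CPM. The libraries fall into 3 sets by line, so r describes the levels of the lines more than any spread within them. For MIAT they were CACNA1A (r = 0.9977), GPSM1 (0.9968) and AMZ1 (0.9968), all lowest in LP1. For GAS5 they were TAF1D (0.9953), itself a snoRNA host, NUDT12 (0.9948) and SSR1 (0.9948), and for ZFAS1 they were INPP5J (0.995), RNF141 (0.9942) and ADGRG6 (0.994), all highest in LP1. PVT1 was nearest to an unnamed long non-coding RNA gene, ENSG00000291136 (0.9926), and then to ENSG00000273230 (0.9918) and ZNF614 (0.9916). SNHG1 was nearest to RNF34 (0.9803), PRELID3B (0.9779) and EEF1E1 (0.9761). Among the 3 nearest genes of SNHG12 were ELMOD1 (0.9867) and IFRD2 (0.9863), and among those of DANCR were SCARB1 (0.9869) and ELAC2 (0.9868). NORAD and CRNDE, which varied least between lines, had no such close match, with SLU7, ANAPC16 and CCDC82 at 0.8727 to 0.8961 for NORAD and PRIMPOL, RRAS2 and HSP90B2P at 0.8553 to 0.8094 for CRNDE.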

How the data were processed

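RNA-seq of 18 libraries (3 lines, 2 gapmeR labels, 3 libraries each) was analysed by label. Per the file headers and the submitters' processing notes, the authors aligned read pairs with STAR 2.7.10a to hg38 and deposited raw counts per gene from featureCounts 1.6.4 on GENCODE 43, counted by strand, over exons and without normalization. Each table lists 62703 genes, 62686 of which matched a symbol, and 0 rows without a gene.

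In each line, genes that reached 10 reads in 1 or more of the 6 libraries were tested with edgeR 4.0.16 (TMM, robust quasi-likelihood fit, Benjamini-Hochberg adjustment over all genes tested, threshold 0.05; R 4.3.3). Levels and changes were compared between lines in 1 edgeR fit of the 18 libraries. CPM and FPKM were derived from the deposited counts, scaled by TMM library sizes. The likeness of genes used log2 CPM with a pseudocount of 0.5. Groups of 3 against 3 cannot give an exact permutation p under 0.1, so no such p is used. Precision is given by 95% intervals of the fits.

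The 10 RNAs and all lists were chosen with earlier results of these data known. Named were the 10, NEAT1 and, of each list, the genes called in most lines (up to 4), by smallest adjusted p, with genes called only under an alternative added after their values were seen. Replicate letters paired the AMO1 libraries, whose same-letter deviations correlated at 0.193, 0.153 and 0.119. The letters did not pair the libraries labelled H929 or LP1. On simulated counts with 200 genes changed by 1 on the log2 scale (smaller changes were not simulated), the fit recovered 99.5%, 99.5% and 100% in AMO1, H929 and LP1 (22099, 22780 and 22404 genes), and 4.78%, 5.69% and 5.66% of calls were false. Alternatives were limma-voom 3.58.1, DESeq2 1.42.0, other scalings and filters, the block, the joint fit, the threshold in the study's supplement and each library left out. Start sequences are RefSeq's, and runs were searched on hg38 over the gene coordinates of the files, with gene types from GENCODE 44 (Python 3.11.15). Figures used matplotlib 3.10.9. Some genes and a list that holds one of them are not reported here.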

Additional observations from a re-analysis of the deposited data

How the results depend on the processing

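In AMO1 and H929, 0 of the 9 RNAs passed the threshold under every alternative. In LP1 the count was 1 (PVT1) with no filter and with the replicate block, and 0 to 1 with a library left out. NEAT1 in LP1 ran from 2.00 to 2.25 with a library left out and missed the threshold in 4 of those fits. The block changed no other call of the 9 RNAs or of NEAT1. The 27 log2 fold changes had 378 values under the alternatives, of which 35 changed sign, none above 0.06 in size; the cause was not tested. In AMO1, SNHG12 was -0.0012 with the filter on 3 libraries, -0.00054 in the joint fit, -0.038 by library size only, -0.011 with no filter, -0.0023 with the block, and -0.056 to 0.057 with a library left out. ZFAS1 there was -0.031 by library size only, -0.00066 with limma-voom, -0.0068 with no filter, and -0.06 to 0.051 with a library left out. In H929, SNHG1 was 0.0019 with DESeq2, 0.0018 with RLE size factors, 0.00078 with the stricter filter, 0.011 in the joint fit, 0.0038 with no filter, and -0.025 to 0.03 with a library left out. There MIAT ran from -0.17 to 0.036 and GAS5 from -0.054 to 0.018 with a library left out. In LP1 the joint fit gave -0.0021 for SNHG1 and -0.0083 for NORAD, and with a library left out GAS5 ran from -0.0025 to 0.079, SNHG1 from -0.06 to 0.078, SNHG12 from -0.021 to 0.084, ZFAS1 from -0.00024 to 0.077 and NORAD from -0.0035 to 0.033.

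Of the level differences between lines, GAS5 (AMO1 against H929) was -0.00091 by library size only and -0.011 to 0.027 with a library left out. NORAD (AMO1 against LP1) was -0.024 with RLE size factors and -0.0011 to 0.033 with a library left out. By library size only, H929 against LP1 gave 0.059 for DANCR and 0.089 for NORAD, and AMO1 against LP1 0.27 for CRNDE and 0.20 for NORAD, both then called. That scaling put 9 of the 9 RNAs past the threshold between AMO1 and LP1 in place of 7, and 8 in place of 9 between H929 and LP1 (without DANCR). With RLE size factors the latter count was also 8 (without CRNDE, 0.088). All genes past the threshold numbered 473, 1286 and 332 in AMO1, H929 and LP1. With no filter they were 808 in AMO1 and 700 in LP1, with the block 1394 in AMO1, and by the study's own threshold (adjusted p below 0.1, 1.5-fold) 176, 369 and 102. With a library left out they were 254 to 606, 701 to 1272 and 87 to 780. Every level per length moved with TPM by more than the spread between libraries, as its scale differs. Depth limits MEG3, with 3 reads in all. It also limits HULC, with 10 to 34, 14 to 49 and 19 to 52 reads a library in AMO1, H929 and LP1.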
